A study of Mus musculus with 6 samples.

Results

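The genes described here encode the machinery of mitosis: a given list of 53 genes in 6 classes, namely the mitotic kinases with the spindle checkpoint, the cyclins with the ubiquitin ligase and transcription factors of the division phase, the kinetochore with the chromosomal passenger complex, the mitotic kinesins, the spindle and cytokinesis proteins, and condensin with other chromosome proteins. They were found by gene symbol among probe sets that carry exactly 1 symbol, and 52 of the 53 were measured so, of 22180 genes in all. The exception, Ncapg of condensin, shares its probe set with Lcorl. Each of the 52 had 1 such probe set. RNA came from primary lung fibroblast cultures of wild-type male C57BL/6 mice aged 8 weeks, enriched from digested whole lung, grown on plastic in medium with serum and passaged at most 3 times. The compared groups were 3 wells with vehicle and 3 wells with purmorphamine, both for 24 h, the dose being 5um in the labels, taken as 5 µM. Purmorphamine is a synthetic agonist of Smoothened, the membrane protein that passes Hedgehog signals on. The labels describe cells split over wells and do not say how many mice or pools they came from, so p-values rest on the spread between wells alone, and this may be technical.

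Cells that approach division make a shared set of transcripts late in the cell cycle. Cyclin-dependent kinase 1 with its cyclins, the Aurora kinases and Polo-like kinase drive entry into mitosis, condensin compacts the chromosomes, kinetochores attach them to spindle microtubules, and the checkpoint kinases hold the anaphase-promoting complex back until all are attached. Kinesins and the central spindle then separate the chromosomes and place the cleavage furrow. These transcripts are low in cells that do not divide, which makes them common markers of proliferation.

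The values were the authors' log2 values from Affymetrix arrays, 1 array per well, and all differences below are purmorphamine minus vehicle on the log2 scale. Array medians lay between 6.34 and 6.39. On the second principal component of all genes, with 13.2% of the variance, both replicates numbered 3 stood away from the rest. Against the label of fibroblasts stood the markers: Vim (13.72), Fn1 (13.70) and Col1a1 (12.77) were bright in vehicle, but so were the macrophage genes Lyz2 (13.96), Cd68 (13.21) and Fcer1g (13.08). Over all 12 fibroblast markers the mean of each vehicle array was 10.62 to 10.70, with values down to 5.79. Over all 12 macrophage markers it was 12.01 to 12.03, with values down to 10.03. Lymphocyte markers lay between 5.03 and 6.61 in the vehicle means of 5 genes. Results are therefore those of whole cultures, in which fewer dividing cells and less transcript per cell cannot be told apart, and in which the dividing cell type cannot be named.

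All 52 measured mitosis genes read lower with purmorphamine, and 49 of them passed the test (limma, Benjamini-Hochberg adjusted p under 0.05 over 22180 genes). Over all genes 14.3% were called, 7.16% lower and 7.18% higher. Changes were moderate and alike. The median difference was -0.47, a 1.39-fold lower level, against -0.01 over all genes. Single genes ran from -0.80 for the kinesin gene Kif15 to -0.18 for the kinetochore gene Spc25. Of the 49 called genes, 11 fell by at least 1.5-fold, where 1.40% of all genes did, and 0 reached 2-fold. In all 52 the highest purmorphamine value lay under the lowest vehicle value, which held for 17.1% of all genes in that direction. The 3 members that did not pass were Nek2, Cenpf and Spc25. A call was made with any 1 array left out for 44 of the 49, and the other 5 (Cdc20, Cenpk, Spc24, Kif18a and Hmmr) are marked below.

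**Figure D1:**
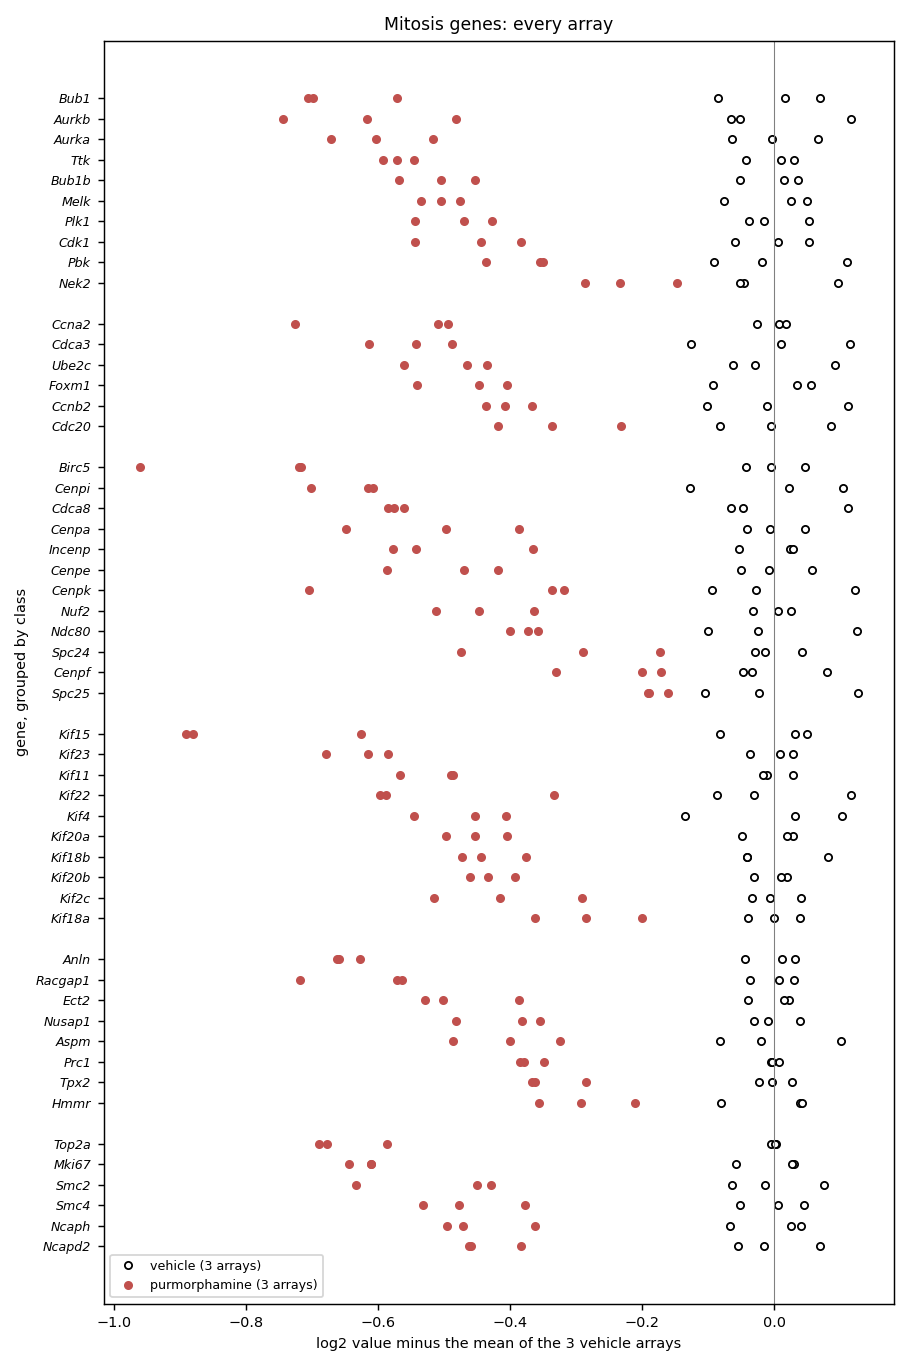
Each row is 1 mitosis gene, and each point is 1 array, plotted as its log2 value minus the mean of the 3 vehicle arrays for that gene (x axis). Open points are the 3 vehicle arrays and filled points the 3 purmorphamine arrays, and the filled points lie left of the open ones in all 52 genes.

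The shift was of like size on each array. Set against each gene's vehicle mean, the median over the 52 genes was 0.03, -0.02 and -0.01 on vehicle replicates 1, 2 and 3, and -0.45, -0.52 and -0.48 on the purmorphamine replicates. Purmorphamine replicate 1 held the highest of the 3 treated values in 30 genes and the lowest in 5, so it was shifted slightly less than the other treated arrays. Vehicle replicate 1 was the highest of the vehicle arrays in 27 genes. Both gaps are small beside the distance between the groups.

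Markers of other cells were set beside this shift. Over all genes 7.16% were called lower and 7.18% higher, so 1 call in a list this short is near that share. Of 12 macrophage markers 4 were called lower, Itgam by 1.46, Csf1r by 0.63, Mrc1 by 0.62 and Adgre1 by 0.37. Itgax was called higher, by 0.31. The fall of Itgam was larger than that of any mitosis gene. The median difference of the 12 was 0.02, with 6 of them below 0. Their summed linear signal was 65607 to 66178 in vehicle and 60960 to 62965 with purmorphamine. Of 12 fibroblast markers 8 were called higher and 1 lower (Thy1), with a median of 0.36 and a summed signal of 49322 to 50780 against 54034 to 55424. Of 6 endothelial markers 3 were called higher and 0 lower, with sums of 3828 to 4099 against 4422 to 4628. Of 6 epithelial markers 1 was called higher and 5 read below 0 without a call, with sums of 2677 to 2730 against 2753 to 2825. Of 5 lymphocyte markers none was called, with sums of 262 to 309 against 279 to 296. For comparison, the summed signal of the 52 mitosis genes was 46221 to 47074 in vehicle and 32634 to 33964 with purmorphamine. The part of cell makeup in the lower mitosis signal was not tested.

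Promoters are shown for the member with the largest difference of each class that had an entry in the RefSeq promoter table (GRCm38.p6), to let the letters of known late cell cycle elements be read beside genes that moved together. Each window runs from 250 bases before to 50 after the annotated start and is written 5′ to 3′ along the gene. Capitals mark CCAAT, the box bound by NF-Y, and TTTGAA or TTTAAA, the letters of the cell cycle homology region bound by the MuvB complex, each on either strand (CCAAT then reads ATTGG, and TTTGAA reads TTCAAA). The Bub1 window is chr2:127831810-127832109 on the minus strand, that of Cdca3 is chr6:124829926-124830225 on the plus strand and that of Birc5 is chr11:117848987-117849286 on the plus strand. That of Kif15 is chr9:122950831-122951130 on the plus strand, that of Anln is chr9:22389157-22389456 on the minus strand and that of Top2a is chr11:99024140-99024439 on the minus strand.
Bub1: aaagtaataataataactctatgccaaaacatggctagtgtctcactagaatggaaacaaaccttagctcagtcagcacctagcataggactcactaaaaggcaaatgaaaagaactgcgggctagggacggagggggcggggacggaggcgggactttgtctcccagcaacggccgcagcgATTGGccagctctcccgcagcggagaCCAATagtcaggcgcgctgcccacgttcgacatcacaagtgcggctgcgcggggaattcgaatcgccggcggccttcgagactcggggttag
Cdca3: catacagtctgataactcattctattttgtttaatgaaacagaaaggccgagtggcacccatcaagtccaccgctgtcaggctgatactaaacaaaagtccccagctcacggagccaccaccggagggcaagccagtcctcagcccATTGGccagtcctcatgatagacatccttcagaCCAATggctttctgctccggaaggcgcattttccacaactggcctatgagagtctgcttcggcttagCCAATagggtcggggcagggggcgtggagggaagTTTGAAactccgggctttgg
Birc5: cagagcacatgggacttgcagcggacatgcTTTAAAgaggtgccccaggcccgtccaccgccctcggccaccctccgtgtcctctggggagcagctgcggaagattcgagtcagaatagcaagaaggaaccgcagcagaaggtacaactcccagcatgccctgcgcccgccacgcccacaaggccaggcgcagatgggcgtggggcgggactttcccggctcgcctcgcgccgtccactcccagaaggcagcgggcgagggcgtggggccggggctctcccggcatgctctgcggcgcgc
Kif15: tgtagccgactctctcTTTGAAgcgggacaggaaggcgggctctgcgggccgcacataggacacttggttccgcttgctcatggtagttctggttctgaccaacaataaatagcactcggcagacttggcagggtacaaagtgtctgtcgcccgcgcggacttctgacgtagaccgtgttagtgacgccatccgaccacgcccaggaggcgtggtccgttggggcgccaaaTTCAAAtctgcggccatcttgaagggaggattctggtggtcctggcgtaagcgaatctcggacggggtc
Anln: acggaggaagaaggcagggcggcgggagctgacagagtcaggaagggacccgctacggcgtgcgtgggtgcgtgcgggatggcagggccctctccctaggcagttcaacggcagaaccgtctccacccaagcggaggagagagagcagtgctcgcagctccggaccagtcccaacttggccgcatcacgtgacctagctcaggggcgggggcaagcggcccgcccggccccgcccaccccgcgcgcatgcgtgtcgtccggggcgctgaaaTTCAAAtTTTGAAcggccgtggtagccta
Top2a: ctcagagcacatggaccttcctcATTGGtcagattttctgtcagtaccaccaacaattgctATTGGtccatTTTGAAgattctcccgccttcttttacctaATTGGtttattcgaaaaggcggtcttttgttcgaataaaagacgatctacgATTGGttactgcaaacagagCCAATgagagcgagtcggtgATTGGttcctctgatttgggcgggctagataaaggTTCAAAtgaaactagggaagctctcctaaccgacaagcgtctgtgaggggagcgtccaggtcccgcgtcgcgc

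The windows differ in what they hold. Top2a has 6 CCAAT boxes and 2 TTTGAA, 1 from 179 to 174 and 1 from 23 to 18 bases before the start. Cdca3 has 3 CCAAT boxes and a TTTGAA from 31 to 36 bases after the start. Kif15 and Anln have no CCAAT here and 2 TTTGAA each. Of the marked letters, Bub1 has 2 CCAAT boxes alone, and Birc5 has a single TTTAAA far upstream. Other spellings of the homology region were not searched, so a window without marked letters may still hold one. Of 43 measured members with a promoter in the table, taking the first listed start of each gene, 32 (74.4%) held CCAAT and 32 (74.4%) held TTTGAA. Among the 16990 tested genes with a promoter these shares were 38.5% and 15.8%, and among all 27025 genes with a listed promoter they were 37.9% and 18.1%. Within 50 bases of the start, TTTGAA stood in 29 of the 43 member promoters (67.4%) and in 4.03% of those of tested genes. TTTAAA stood in 20.9% of member promoters, in 11.8% of those of tested genes and in 13.2% of the whole table. Of other letters searched on both strands, GGCGGG, a GC box, stood in 67.4% of member promoters, 46.0% of those of tested genes and 35.5% of the whole table, and TTTNNCGC, an E2F-like run, in 11.6%, 6.37% and 5.27%. Neighbouring matches of CCAAT and TTTGAA can share an end base, and matches of GGCGGG and TTTNNCGC can share several.

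Members with and without these letters in the window had close medians. The 32 members with TTTGAA had a median difference of -0.48 and the 11 without it -0.45. With CCAAT the median was -0.49 over 32 members and without it -0.44 over 11. The 11 members without CCAAT ran from -0.80 (Kif15 and Birc5) to -0.28, and the 32 with it from -0.66 to -0.18. In DNA replication genes, a neighbouring group of the cell cycle, CCAAT stood in 62.9% of 35 promoters, TTTGAA in 17.1%, GGCGGG in 80.0% and TTTNNCGC in 40.0%. In 64 promoters of mitosis genes that are no members, these shares were 60.9%, 40.6%, 76.6% and 20.3%. These are matches of letters, described without a test, and do not show that a factor was bound.

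**Figure D2:**
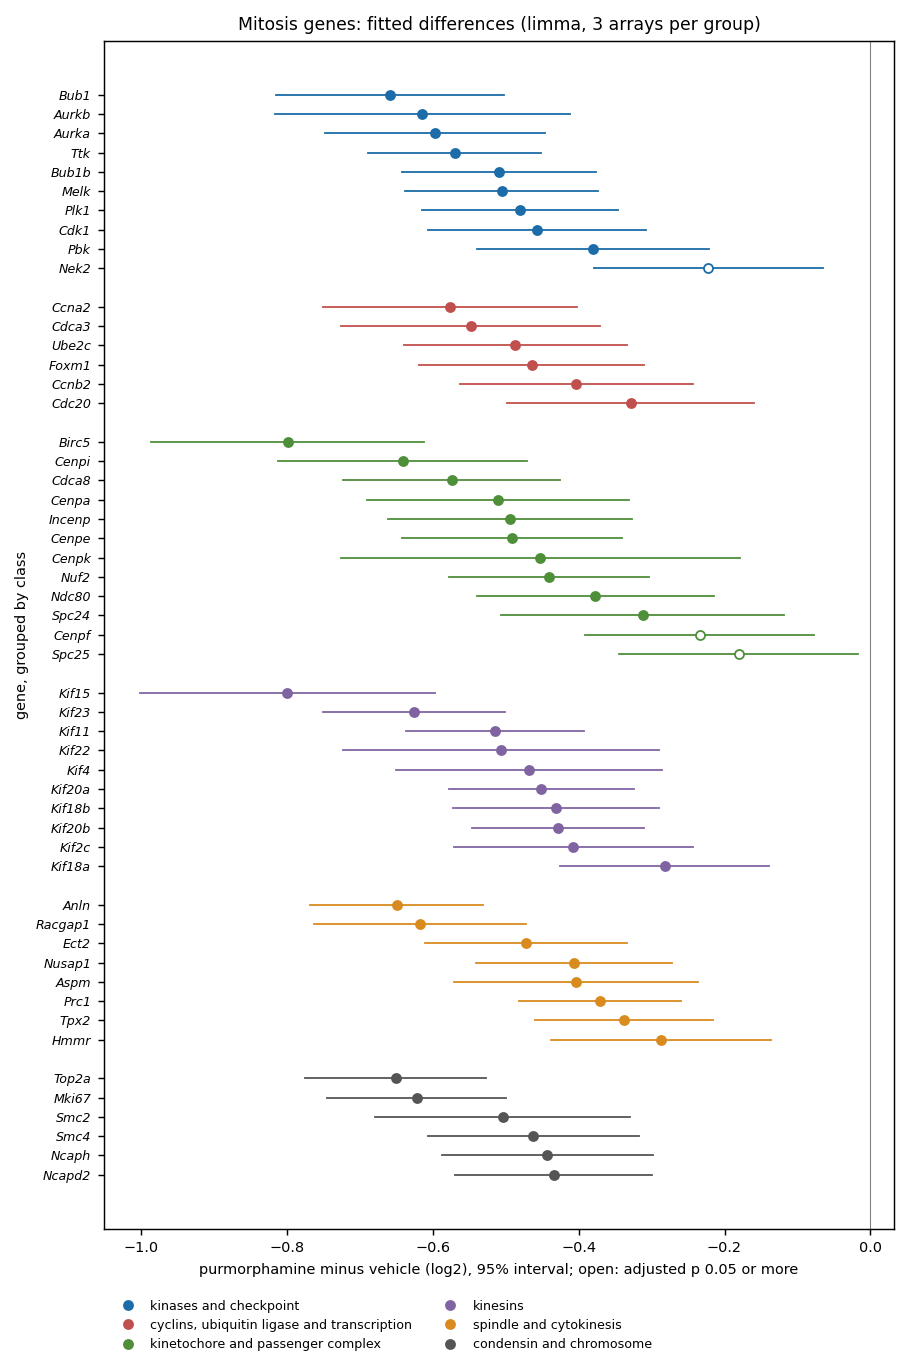
Fitted difference, purmorphamine minus vehicle, on the log2 scale (x axis) of each of the 52 mitosis genes, sorted within 6 colour-coded classes, with 95% intervals from limma. Open points are Nek2, Cenpf and Spc25, which did not pass, and all points lie between -0.80 and -0.18.

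All 10 mitotic kinase and checkpoint genes read lower and 9 of them were called, with a median of -0.51. The largest fall was that of Bub1, a kinase of the spindle checkpoint that sits at kinetochores. Its log2 values were 9.98, 9.83 and 9.93 with vehicle and 9.21, 9.34 and 9.21 with purmorphamine, a difference of -0.66 (SE 0.07, limma adjusted p = 0.00122, n = 3 per group). The lowest vehicle array stood clear of the highest treated array. Aurkb, the kinase of the chromosomal passenger complex, read 9.58, 9.74 and 9.56 against 9.15, 9.01 and 8.88 (-0.61, SE 0.09, adjusted p = 0.00423). Aurka, the Aurora kinase of centrosomes and spindle poles, read 9.72, 9.66 and 9.79 against 9.21, 9.12 and 9.05 (-0.60, SE 0.06, adjusted p = 0.00153). Both Aurora kinases thus moved by nearly the same amount, although they act at different sites. The checkpoint kinase gene Ttk fell by 0.57 and Bub1b, which encodes the checkpoint protein BubR1, fell by 0.51. Melk fell by 0.51, Plk1, Polo-like kinase, by 0.48, and Cdk1 itself by 0.46. Pbk, a kinase active in mitosis, fell by 0.38. Nek2, a centrosome kinase that helps to part the spindle poles, also read lower but was not called. It read 8.55, 8.69 and 8.54 against 8.45, 8.36 and 8.31, a difference of -0.22 (95% interval -0.38 to -0.07, adjusted p = 0.0713). Its groups did not overlap but came close to each other.

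All 6 genes of cyclins, ubiquitin ligase and transcription fell, with a median of -0.48. Ccna2, cyclin A2, which partners both S phase and mitotic kinases, read 10.67, 10.64 and 10.68 with vehicle and 10.17, 9.94 and 10.15 with purmorphamine (-0.58, SE 0.07, limma adjusted p = 0.0031). Purmorphamine replicate 2 was the lowest of its group. Cdca3, a protein linked to the degradation of the mitosis inhibitor Wee1, read 8.69, 8.80 and 8.56 against 8.20, 8.14 and 8.07 (-0.55, adjusted p = 0.00402). Ube2c, the ubiquitin-conjugating enzyme of the anaphase-promoting complex, read 10.31, 10.19 and 10.15 against 9.66, 9.78 and 9.75 (-0.49, adjusted p = 0.00358). Foxm1, the forkhead factor that activates many genes of this group, fell by 0.46, and Ccnb2, cyclin B2, fell by 0.40. Cdc20, the activator of the anaphase-promoting complex that the checkpoint holds back, changed least. It read 10.08, 9.91 and 9.99 against 9.65, 9.76 and 9.57 (-0.33, SE 0.07, adjusted p = 0.0243). That call was lost without vehicle replicate 1 or 3 and without purmorphamine replicate 1 or 3 (adjusted p from 0.0691 to 0.0783).

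Kinetochore and passenger complex genes were the most uneven class, with 10 of 12 called lower, a median of -0.47 and a range from -0.80 to -0.18. The 4 subunits of the passenger complex all fell. Birc5, survivin, which brings that complex to centromeres, read 8.48, 8.43 and 8.39 with vehicle and 7.71, 7.72 and 7.47 with purmorphamine (-0.80, SE 0.08, limma adjusted p = 0.00116), a 1.74-fold lower level. Cdca8, borealin, read 8.60, 8.44 and 8.42 against 7.91, 7.90 and 7.93 (-0.57, SE 0.06, adjusted p = 0.00171). The treated arrays agreed closely in Cdca8 and spread more in Birc5. Incenp, the scaffold of the complex, fell by 0.49, beside Aurkb above. At the inner kinetochore, Cenpi read 8.81, 8.89 and 8.66 against 8.09, 8.18 and 8.17 (-0.64, SE 0.07, adjusted p = 0.00189). Cenpa, the histone variant that marks centromeres, fell by 0.51. Cenpk, in the same inner group as Cenpi, fell by 0.45, with an adjusted p of 0.043 that was lost without any 1 of the 6 arrays (0.0579 to 0.122). At 6.72 in vehicle it was close to the array medians. Cenpe, the kinesin that carries chromosomes to the spindle middle, fell by 0.49.

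The Ndc80 complex, which grips microtubule ends, has 4 subunits, and these gave graded values. Nuf2 fell by 0.44, Ndc80 by 0.38 and Spc24 by 0.31, the last with an adjusted p of 0.0475 that was lost without any 1 array except purmorphamine replicate 2 (0.0900 to 0.129). Spc25 read 8.84, 8.76 and 8.99 with vehicle and 8.70, 8.67 and 8.67 with purmorphamine, a difference of -0.18 (95% interval -0.34 to -0.02, limma adjusted p = 0.142). Its highest treated value and lowest vehicle value nearly met. The interval of Nuf2, -0.58 to -0.30, overlaps that of Spc25, and the difference between subunits was not tested. Cenpf, a large outer kinetochore protein, differed by -0.23 (95% interval -0.39 to -0.08, adjusted p = 0.0614).

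Every one of the 10 kinesin genes fell, with a median of -0.46. Kif15, a motor that helps to keep the bipolar spindle open, had the lowest difference of all 52 genes. Its values were 8.88, 8.86 and 8.75 with vehicle and 8.21, 7.94 and 7.95 with purmorphamine (-0.80, SE 0.09, limma adjusted p = 0.00155), a 1.74-fold lower level. Purmorphamine replicate 1 was the highest of the treated arrays. Kif23, the motor of the central spindle, read 10.11, 10.04 and 10.09 against 9.50, 9.47 and 9.40 (-0.63, SE 0.05, adjusted p = 6.60e-04). Kif11, Eg5, the motor that parts the spindle poles, read 9.76, 9.75 and 9.80 against 9.28, 9.20 and 9.28 (-0.51, SE 0.05, adjusted p = 0.0012). Replicates of Kif23 and Kif11 lay close together in both groups. Kif22, a chromosome-arm motor, fell by 0.51, and Kif4, a chromokinesin that also works in the midzone, by 0.47. Kif20a and Kif20b, both of cytokinesis, fell by 0.45 and 0.43. The microtubule depolymerase gene Kif2c fell by 0.41. Kif18b fell by 0.43, and its relative Kif18a, which damps chromosome movement at the spindle middle, read 7.98, 7.90 and 7.94 against 7.66, 7.58 and 7.74 (-0.28, adjusted p = 0.0232). The call of Kif18a was lost without any 1 array except purmorphamine replicate 3 (adjusted p from 0.0537 to 0.0766).

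Spindle and cytokinesis genes fell in 8 of 8 cases, with a median of -0.40. Anln, anillin, which links actin, myosin and septins at the furrow, read 11.14, 11.06 and 11.12 with vehicle and 10.48, 10.45 and 10.45 with purmorphamine (-0.65, SE 0.05, limma adjusted p = 4.78e-04), the smallest p of all members. Racgap1, the partner of Kif23 in the centralspindlin complex, read 9.96, 9.89 and 9.93 against 9.36, 9.21 and 9.36 (-0.62, SE 0.06, adjusted p = 0.00118). With Kif23 at -0.63, both parts of that complex moved by nearly the same amount. Ect2, the exchange factor that centralspindlin recruits to activate RhoA, read 10.84, 10.90 and 10.90 against 10.49, 10.35 and 10.38 (-0.47, adjusted p = 0.00276). Of the other members, the spindle genes Nusap1 and Aspm fell by 0.41 and 0.40, Prc1, the bundler of midzone microtubules, by 0.37, and Tpx2, the activator of Aurora A, by 0.34. Hmmr, a spindle protein also known as a hyaluronan receptor, read 9.04, 9.04 and 8.92 against 8.79, 8.64 and 8.70 (-0.29, adjusted p = 0.0262). Its call was lost without vehicle replicate 1 or 2 and without purmorphamine replicate 2 or 3 (adjusted p from 0.0769 to 0.0876).

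Condensin and chromosome genes fell in all 6 measured cases, with a median of -0.48 and the narrowest range, -0.65 to -0.43. Top2a, the topoisomerase that untangles sister chromatids, read 10.71, 10.70 and 10.71 with vehicle and 10.12, 10.03 and 10.02 with purmorphamine (-0.65, SE 0.05, limma adjusted p = 5.67e-04). Its vehicle arrays were all but identical. Mki67, the proliferation marker Ki-67 that coats mitotic chromosomes, read 11.81, 11.80 and 11.72 against 11.16, 11.17 and 11.13 (-0.62, SE 0.05, adjusted p = 6.33e-04). The condensin core subunit gene Smc2 read 9.71, 9.76 and 9.84 against 9.32, 9.14 and 9.34 (-0.50, adjusted p = 0.00516), and its partner Smc4 fell by 0.46. Of the regulatory subunits of condensin I, Ncaph fell by 0.44, and Ncapd2 read 9.43, 9.47 and 9.55 against 9.02, 9.10 and 9.02 (-0.43, adjusted p = 0.00351). So the 4 condensin subunits among the measured members lay between -0.50 and -0.43. Condensin subunit genes that are no members spread more widely. Ncapd3 differed by -0.53, Ncapg2 by -0.38 and Ncaph2 by -0.18, the last without a call (limma adjusted p = 0.107). Probe sets with several symbols, which were left out of the test, gave values beside these: that of Ncapg and Lcorl differed by -0.40, those of Top2a and Taf1d by -0.68 and -0.59, and that of Oip5 and Nusap1 by -0.38.

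**Figure D3:**
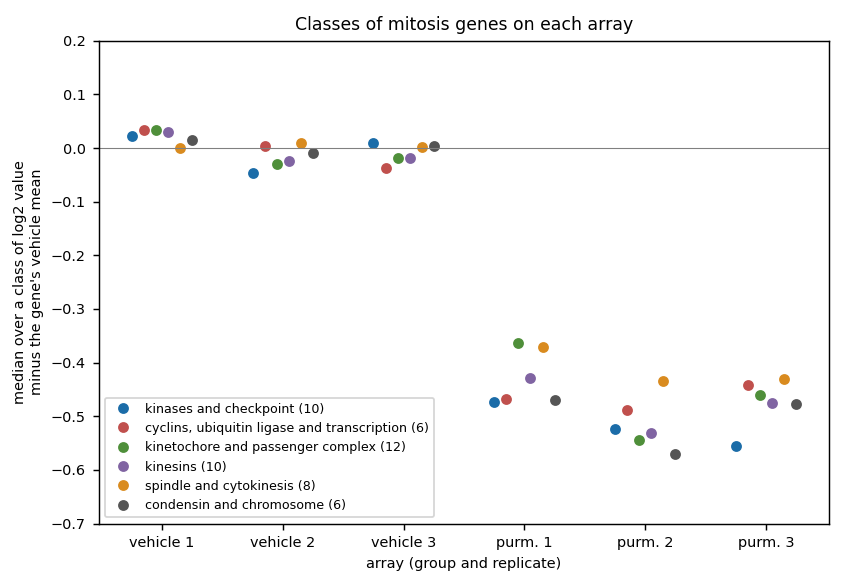
For each of the 6 arrays (x axis), the median over the genes of a class of the log2 value minus the gene's vehicle mean (y axis), with the number of genes in brackets and 1 colour per class. Class medians lie between -0.05 and 0.03 on the vehicle arrays and between -0.57 and -0.36 on the purmorphamine arrays.

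Classes differed little from each other. Class medians ran from -0.51 for kinases and checkpoint to -0.40 for spindle and cytokinesis, a span smaller than the range within any class, and differences between classes were not tested. The differences nearest to 0 were those of Spc25 (-0.18), Nek2 (-0.22), Cenpf (-0.23), Kif18a (-0.28), Hmmr (-0.29), Spc24 (-0.31) and Cdc20 (-0.33), which belong to 5 of the 6 classes.

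A wider list of mitosis genes that are no members behaved alike but less evenly. Of 81 measured, 49 (60.5%) were called lower and 0 higher, where 7.16% and 7.18% of all genes were called lower and higher, with a median of -0.33. The groups did not overlap in 70 genes that read lower and in 4 that read higher, against 17.1% of all genes in each direction. The 4 were Psrc1 (0.24), Stag2 (0.18), Clasp1 (0.13) and Ckap2 (0.13), none of them called. The smallest p-values belonged to Trip13, which remodels checkpoint complexes (-0.75), Cep55, which acts in the last cut between daughter cells (-0.66), Iqgap3 (-0.59) and the nuclear lamin gene Lmnb1 (-0.75), with limma adjusted p from 3.25e-04 to 8.39e-04. At the other end, the cohesin gene Smc3 (-0.04), the centromere genes Cenpc1 (-0.02) and Cenpp (0.02) and the securin gene Pttg1 (-0.05) did not pass. The 95% interval of Pttg1 was -0.19 to 0.09, and that of Smc3 was -0.19 to 0.11.

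**Figure D4:**
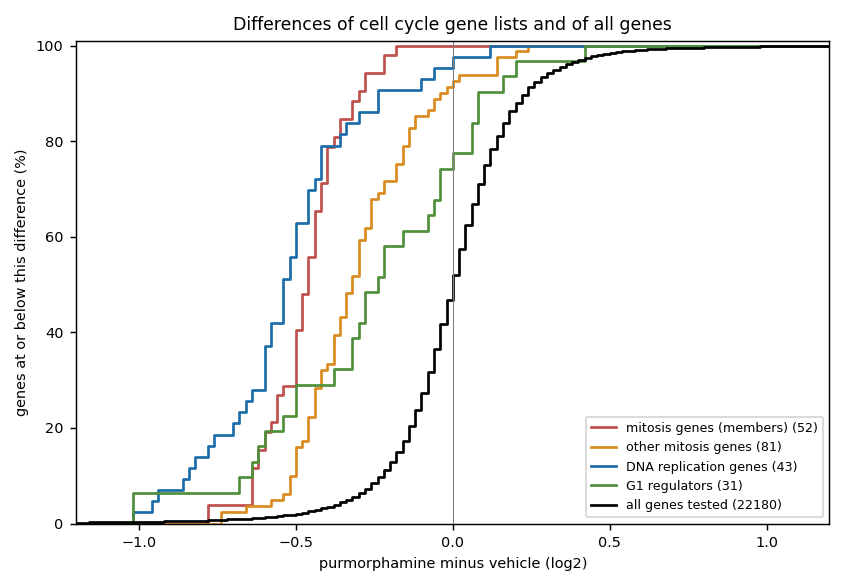
Share of genes (y axis, percent) whose difference, purmorphamine minus vehicle on the log2 scale (x axis), is at or below each value, for the 52 mitosis genes, 81 other mitosis genes, 43 DNA replication genes, 31 G1 regulators and all 22180 genes. The curve of the mitosis genes is the steepest and ends below 0, while that of replication genes starts further left and reaches 0.10.

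Earlier steps of the cell cycle were measured in the same fit. Of 43 DNA replication genes 39 were called lower and 0 higher, where 7.16% and 7.18% of all genes were, with a median of -0.55. Of those called, 17 fell by at least 1.5-fold, against 11 of 52 mitosis genes and 1.40% of all genes. Mcm5 (-1.03) and Mcm6 (-0.83) of the replicative helicase, the thymidine kinase gene Tk1 (-0.86) and the polymerase gene Pole (-0.71) had the smallest p-values, while Rfc1, Rfc2, Rpa3 and Gins4 did not pass (-0.11 to 0.10). Of 31 G1 regulators 16 were called lower and 2 higher, with a median of -0.25. The 2 called higher, Cdkn1b and Rb1, are a share near that of all genes. No mitosis gene fell as far as Mcm5, and the gap between the groups of genes was not tested.

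Among the genes called lower were some whose proteins are known to act on mitosis genes. Whether they had a part in the lower mitosis signal was not tested. Mybl2, B-Myb, joins the MuvB complex at late cell cycle promoters. In the brighter of its 2 probe sets it read 9.43, 9.35 and 9.40 with vehicle and 8.45, 8.48 and 8.16 with purmorphamine (-1.03, SE 0.09, limma adjusted p = 7.26e-04). Its fitted difference was larger than that of Foxm1, which joins the same complex later. The MuvB subunit genes Lin9 and Lin54, chosen after their values were seen, fell by 0.33 and 0.25, and the call of each was lost for 5 of the 6 arrays when these were left out singly (adjusted p up to 0.105). The repressor genes E2f8 and E2f7 fell by 1.03 and 0.64, and Cdk2 by 0.60. Cdkn1b, the inhibitor p27, rose by 0.41 (adjusted p = 0.00293), and Rb1 rose by 0.20 in its brighter probe set, a call that was lost with any 1 array left out (0.0730 to 0.138). Cdkn1a, the inhibitor p21, differed by 0.05 (95% interval -0.09 to 0.19), and Cdk4 (0.05), Cdkn2b (-0.01) and E2f5 (-0.05) did not pass either.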

How the data were processed

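The authors' deposited table holds log2 values, 1 per probe set and array, for 6 arrays, 3 per group. As per the labels, labelled RNA was made from 100 ng per well by poly(T) priming and in vitro transcription. The submitters' processing notes name oligo, RMA and limma, with versions not given in the sources used here. RMA makes the arrays' distributions alike, so it hides a change shared by all genes, and it compresses changes of dim genes. Precision is limited by the number of arrays: the median SE of a member's difference was 0.06.

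Probe sets were named from the platform annotation, and of 41345, 23521 had 1 symbol. Per gene the probe set with the highest mean was kept. The 22180 genes were tested with limma 3.58.1 (lmFit, eBayes; R 4.3.3), without a block, two-sided, with Benjamini-Hochberg adjustment and a threshold of 0.05 on the adjusted p. Members, classes, lists and tests were chosen with earlier results of these data known, and so were the alternatives, except that the removal of replicate 3 from both groups was chosen after seeing the data in this work. Values of every array are given for the 3 members of each class with the largest difference and the 1 with the smallest, and of other lists the 4 smallest and largest p-values and calls against the list's direction are named. Deviations of same-numbered arrays correlated at 0.106, 0.024 and 0.103 over all genes, so not every pair met the criterion used (a correlation over 0.1). Each array still correlated best with its own number, and a replicate block was run as an alternative. The fit was tested on simulated data of this comparison with 22180 genes, of which 200 were changed. There, 90% of genes changed by 1 log2 unit and 47% of those changed by 0.5 were recovered, with 3 false calls among 140. In the data 3181 genes were called, so these shares do not give the share recovered here. Alternatives were median centring, quantile normalization, an offset of 50 on the linear scale, removal of the dimmest genes (a share of 0.333), averaged probe sets, every probe set, a variance trend with a robust fit, array weights, a replicate block, each array left out, an adjusted p under 0.1 and a fold of at least 1.5. Promoter windows are RefSeq's. Python 3.11.15 and matplotlib 3.10.9 drew the plots.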

Additional observations from a re-analysis of the deposited data

How the results depend on the processing

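The direction of all 52 mitosis genes was lower in every alternative run, and their median difference stayed between -0.49 and -0.45. Of the 52, 46 to 51 were called lower under centring, quantile normalization, the offset, the dim filter, other uses of probe sets, the variance trend, array weights, the replicate block and an adjusted p under 0.1, and 44 to 46 with 1 array left out. Nek2 and Cenpf passed with the offset (adjusted p of 0.0264 and 0.0205), without the dimmest genes and with the variance trend. Without replicate 3 of both groups, and so with fewer samples, 28 mitosis genes were called, 21 of the 49 being lost (adjusted p from 0.0506 to 0.158), beside 17 other mitosis genes, 8 G1 regulators and 951 genes in all, while the median of the mitosis genes was -0.46. With a fold of at least 1.5 as well, 11 mitosis genes, 4 other mitosis genes, 17 replication genes, 6 G1 regulators and 525 genes in all were called. Of the other mitosis genes, 34 to 38 were called with 1 array left out. Some of them were called higher: 2 with the offset, 1 without the dimmest genes and 3 with the variance trend. At an adjusted p under 0.1, and without purmorphamine replicate 3, 1 was called higher. Of all genes 3181 were called, and with 1 array left out 1967 to 2374: leaving out vehicle replicates 2 and 3 singly gave 2034 and 2110, and purmorphamine replicates 1 and 3 gave 1967 and 2065. With the replicate block, 46 mitosis genes and 2432 genes in all were called, and Cdc20 (0.0604), Spc24 (0.0625) and Hmmr (0.0532) missed the test. Deviations of same-numbered arrays correlated at 0.11, 0.02 and 0.10 over all genes, and each array correlated best with its own number, which is a hint from the data and not the design. Spc24 also missed it after centring (0.0537) and Cenpk after quantile normalization (0.0506).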
